A study of Mus musculus with 18 samples.

Results

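Carbonic anhydrases convert carbon dioxide and water into bicarbonate and a proton, and back. The genes described here are Car2, Car4, Car5b, Car6, Car8, Car9, Car12 and Car13, 8 symbols taken from the mouse carbonic anhydrase family, in a gene table of 18397 genes. They were chosen by symbol with measured levels and fold changes of the same libraries in view, and no record says which of those values decided. The tests below therefore describe these genes and lend the choice no independent support. Of the 8 genes, 7 had a row in the table and 6 had enough reads to be tested among 12245 genes. Car4, which encodes an enzyme anchored to the outer cell surface, had no row, so its level was not analysed and only its promoter window was read.

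The data are RNA-seq of 18 libraries labelled as RAW264.7, a macrophage-like cell line of mouse origin, in 6 groups of 3. The groups were Stiff-TW, Stiff+mito, Stiff, Soft-TW, Soft+mito and Soft, that is, Stiff or Soft, called the matrix here, by itself, with the suffix +mito or with the suffix -TW. The labels spell out neither suffix and give no stiffness, so "with mito" and "with TW" below refer to the label and not to a known treatment, and the title of the study names a transfer of mitochondria and links it to stiffness. No label says whether the 3 libraries of a group came from separate cultures, so the p-values measure the spread between libraries, which may be technical.

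The libraries held between 16054637 and 16887244 estimated counts and none stood apart in depth. The labelled cell type was poorly borne out by its defining markers. Of 19 macrophage markers, 17 were in the table and 4 averaged at least 1 TPM (transcript abundance scaled by length and depth), namely Cd14, Lyz2, Cd68 and Aif1. Csf1r, Adgre1 and Ptprc, also on that list, averaged 0.258, 0.0333 and 0.065 TPM over the 18 libraries. Of 10 epithelial markers in the table, Krt8 and Krt18 averaged 554 and 270 TPM, while Epcam and Cdh1 averaged 0.0178 and 0.0983 TPM. Since these are bulk samples, fewer cells that express a gene and less RNA of it per cell cannot be told apart.

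Members of the family differ mainly in where they work. Car2 and Car13 are cytosolic enzymes, and Car2 is abundant in red blood cells and in osteoclasts, bone-resorbing cells of the macrophage lineage. Car5b sits in mitochondria, where bicarbonate feeds carboxylases. Car6 is secreted and is best known from saliva. Car9 and Car12 span the plasma membrane and catalyse the reaction outside the cell, where they take part in the handling of acid by tumour cells, and Car9 is a textbook target of the hypoxia-inducible factor HIF1. Car8 is a carbonic anhydrase-related protein without the catalytic activity.

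In the RefSeq annotation of GRCm38.p6, Car13 (gene 71934, chromosome 3, 14641727 to 14663002) and Car2 (gene 12349, chromosome 3, 14886269 to 14900770) lie in one cluster, 223267 bases apart. Chromosome 4 carries Car8 (gene 12319, 8141493 to 8239041), Car9 (gene 230099, 43507026 to 43513729) and Car6 (gene 12353, 150187015 to 150201135) at distant positions. Car12 (gene 76459) lies on chromosome 9, 66712296 to 66766845, and Car5b (gene 56078) on chromosome X, 163976822 to 164028010. Values at the gene level count reads over these whole genes. For Car9, 214 of its 2304 exon bases in the GENCODE annotation overlap an antisense gene, Gm12454, which has no row in the table. No source used here gives the strand setting of the counting, so reads from that antisense RNA could not be told apart there.

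Promoter windows from RefSeq (GRCm38.p6, 250 bases before to 50 after the start that the window table uses) were held for Car4, Car5b, Car6, Car9 and Car12. For Car12 that start lies inside the interval of the gene given above, so its window is neither shown nor read. Those of Car9 and Car6 are shown because the results turn on these genes. They run 5′ to 3′ on the strand of the gene, and capitals mark the letters searched for on both strands. These were ACGTG and GCGTG, the core of the hypoxia response element, TGANTCA, bound by AP-1, and TGATGNAA, a composite site of Atf4.
Car9, chr4:43506776-43507075, plus strand: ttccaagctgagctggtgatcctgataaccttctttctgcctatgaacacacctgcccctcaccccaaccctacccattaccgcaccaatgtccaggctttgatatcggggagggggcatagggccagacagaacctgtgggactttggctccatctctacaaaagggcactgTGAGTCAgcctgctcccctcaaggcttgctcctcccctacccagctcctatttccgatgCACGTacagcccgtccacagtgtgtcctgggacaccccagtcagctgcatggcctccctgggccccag
Car6, chr4:150201086-150201385, minus strand: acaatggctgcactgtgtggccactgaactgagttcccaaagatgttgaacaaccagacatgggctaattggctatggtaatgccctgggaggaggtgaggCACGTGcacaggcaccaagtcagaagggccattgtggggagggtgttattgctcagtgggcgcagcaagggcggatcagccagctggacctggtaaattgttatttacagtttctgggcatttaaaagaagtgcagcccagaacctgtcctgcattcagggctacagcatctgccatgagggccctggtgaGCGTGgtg

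The Car9 window held ACGTG on the opposite strand, beginning 18 bases before the start, and the AP-1 letters TGAGTCA 77 bases before it. In the Car6 window the palindrome CACGTG, which holds ACGTG on both strands and so counts on each, began 149 bases before the start, and GCGTG lay after the start. Across all 32851 windows of the table, 19.6% held ACGTG, 32.4% GCGTG, 7.81% TGANTCA and 3.97% TGATGNAA. The windows of Car5b and Car4 held GCGTG at 5 places and ACGTG at 1.

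Summed over the 7 genes in the table, carbonic anhydrase mRNA came to 323.7 ± 3.82 TPM in Stiff-TW, 172.2 ± 3.09 in Stiff+mito and 133.9 ± 3.72 in Stiff (SD, n = 3 libraries, as for all TPM below). It was 282.9 ± 3.95 TPM in Soft-TW, 125.7 ± 3.96 in Soft+mito and 127.5 ± 2.10 in Soft. Car9 made up 64.7 ± 0.429% of this sum in Stiff-TW, 43.4 ± 1.43% in Stiff+mito and 21.9 ± 0.639% in Stiff. It made up 55.8 ± 0.86% in Soft-TW, 30.3 ± 0.177% in Soft+mito and 29.3 ± 1.12% in Soft. TPM is scaled by transcript length, so these levels can be set side by side between genes.

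**Figure D1:**
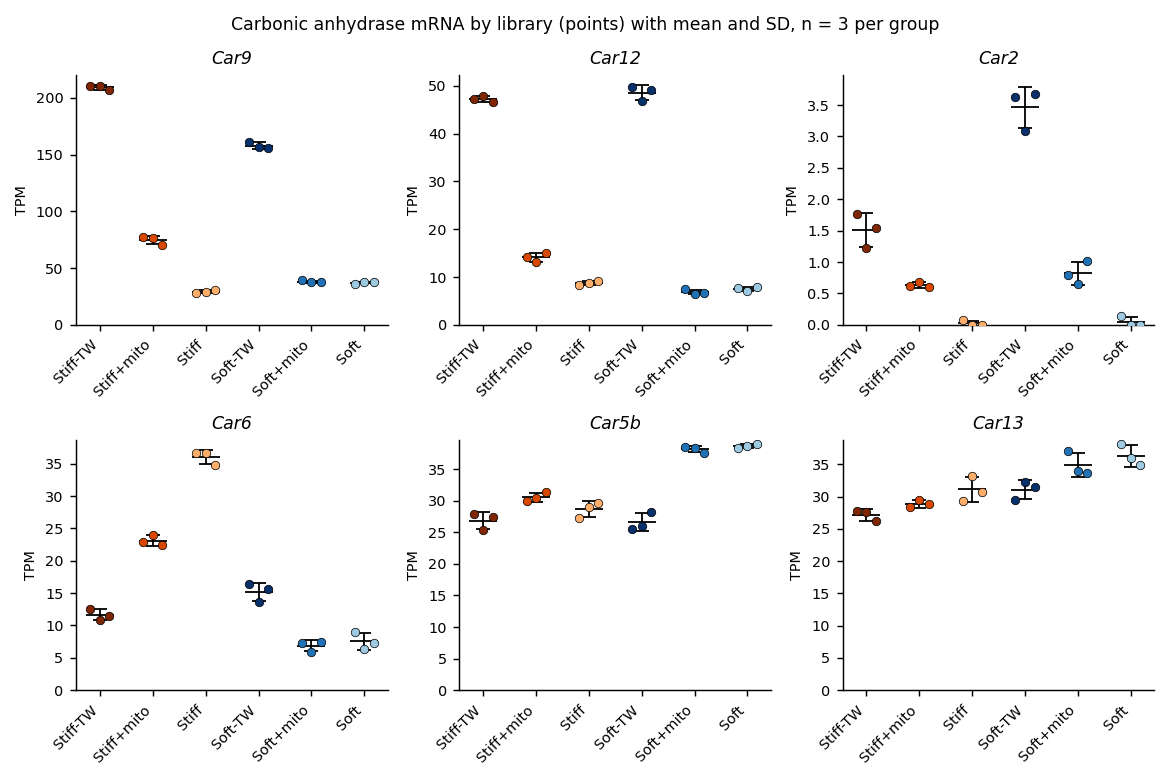
TPM of 6 carbonic anhydrase genes in each library (points) of the 6 groups on the horizontal axis, with mean and SD (n = 3), each panel on its own linear scale from 0. Car9 and Car12 are highest in the TW groups, at means of 209 and 158 TPM and of 47.2 and 48.6 TPM, Car6 is highest in Stiff at 36.0 TPM, and Car5b is highest in Soft+mito and Soft.

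The order of levels changed with the group. In Stiff, Car6 (36.0 ± 1.10 TPM) led, and Car13 (31.2 ± 1.98 TPM), Car9 (29.3 ± 1.18 TPM) and Car5b (28.7 ± 1.22 TPM) overlapped one another. In Soft, Car5b (38.7 ± 0.294 TPM) came first, its libraries just above those of Car9 (37.3 ± 0.835 TPM) and Car13 (36.3 ± 1.71 TPM), which overlapped each other. Car6 (7.55 ± 1.34 TPM) and Car12 (7.54 ± 0.453 TPM) followed, likewise overlapping, and Car2 was near 0. In Stiff-TW and Soft-TW the order began with Car9 and then Car12, whose libraries lay apart from each other and from those of the other genes. In Stiff+mito the order was Car9, Car5b, Car13, Car6 and Car12 with no overlap between neighbours, and in Soft+mito the libraries of Car5b and Car9 overlapped at the top.

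Comparisons between groups used edgeR's quasi-likelihood test over all 12245 genes, with Benjamini-Hochberg adjustment, and a gene was called at an adjusted p under 0.05. Each log2 fold change is followed by its approximate standard error, which is its absolute value over the root of the F statistic. In Stiff-TW against Stiff, 5 of the 6 tested genes were called, beside 69.6% of all genes, and in Soft-TW against Soft 6 of 6, beside 56.9%. In Stiff+mito against Stiff 4 of 6 were called, beside 33.5%, and in Soft+mito against Soft 2 of 6, beside 26.7%. In Stiff against Soft, 5 of 6 were called, beside 53.8%, in Stiff+mito against Soft+mito 5 of 6, beside 63.5%, and in Stiff-TW against Soft-TW 4 of 6, beside 54.3%. For the interaction of mito and matrix 3 of 6 were called (2 higher and 1 lower), where 10.4% of all genes were higher and 13.1% lower. For that of TW and matrix 4 of 6 were called (2 higher and 2 lower), where 16.4% were higher and 19.7% lower. Car2 entered these counts only through the TW and mito libraries in which it was high, and with 6 genes tested nothing is read from these counts against the background.

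**Figure D2:**
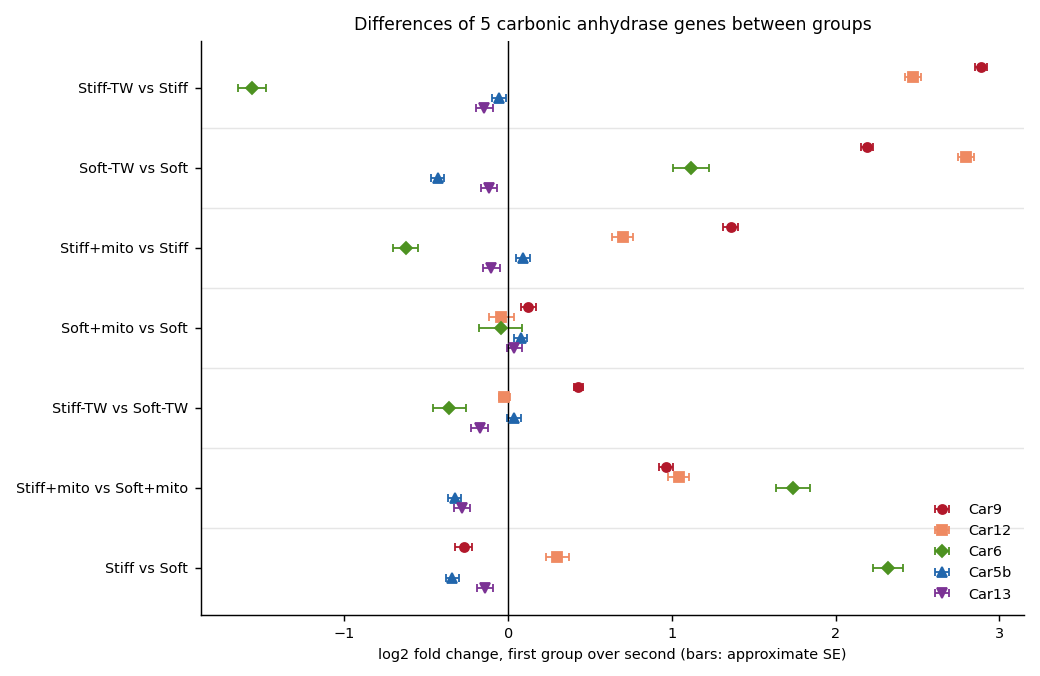
Log2 fold changes (horizontal axis, first group over second) of Car9, Car12, Car6, Car5b and Car13 in 7 comparisons (rows), with approximate standard errors. Car9 and Car12 lie to the right in Stiff-TW against Stiff (2.89 and 2.47), in Soft-TW against Soft (2.19 and 2.80) and, less far, in Stiff+mito against Stiff and Stiff+mito against Soft+mito, while Car6 lies to the left in Stiff-TW against Stiff (-1.56) and to the right in Soft-TW against Soft (1.12).

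The membrane-bound Car9 spanned 28.1 to 211 TPM. Its libraries stood at 210.52, 210.44 and 206.94 TPM in Stiff-TW, at 76.97, 76.92 and 70.53 in Stiff+mito, and at 28.12, 29.31 and 30.48 in Stiff. They stood at 161.37, 156.78 and 155.65 TPM in Soft-TW, at 39.21, 37.43 and 37.57 in Soft+mito, and at 36.34, 37.74 and 37.83 in Soft. Every TW library lay above every other library, the Stiff+mito libraries formed a level of their own between, and the Soft+mito and Soft libraries overlapped.

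Against Stiff, Car9 rose in Stiff-TW with a log2 fold change of 2.89 ± 0.037 (7.40-fold, adjusted p = 8.78e-91 by edgeR). Against Soft it rose in Soft-TW with 2.19 ± 0.037 (4.56-fold, edgeR adjusted p = 2.56e-79). Between Stiff+mito and Stiff the rise was 1.36 ± 0.044 (2.56-fold, edgeR adjusted p = 1.90e-51). On the soft side the value was 0.12 ± 0.047 (edgeR adjusted p = 0.0409), and it no longer passed with DESeq2 (adjusted p = 0.092), with library totals as the scale (edgeR adjusted p = 0.131), without a filter on low counts (adjusted p = 0.0666) or in a fit of only Soft+mito and Soft (0.086). It also missed the threshold without Soft replicate 1 (edgeR adjusted p = 0.21), Soft+mito replicate 1 (0.108) or Soft+mito replicate 3 (0.0955).

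Sums of genes listed as markers of other cell types also differed between these groups. The 9 fibroblast markers, 5 of which averaged at least 1 TPM, summed to 147 ± 1.87 TPM in Stiff-TW, 103 ± 3.39 in Stiff+mito and 85.8 ± 0.588 in Stiff, and to 103 ± 1.06 in Soft-TW, 62.3 ± 1.92 in Soft+mito and 69.1 ± 1.51 in Soft. The 10 epithelial markers summed to 676 ± 6.40 TPM in Stiff-TW, 748 ± 12.9 in Stiff+mito and 704 ± 9.19 in Stiff, and to 775 ± 9.76 in Soft-TW, 1040 ± 6.54 in Soft+mito and 1010 ± 15.8 in Soft. A few genes carried these sums. The epithelial sum was almost wholly Krt8 and Krt18 (means of 554 and 270 TPM), with Grhl2 next at 0.458 TPM. The fibroblast sum was mostly Pdgfra (41.9 TPM) and Col1a2 (37.1 TPM), while Thy1, Lum and Fap averaged 0.0117, 0.0261 and 0.0283 TPM. The part of these cell types in the results of Car9 and the other genes was not tested.

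The sign of the Car9 difference between matrices depended on the rest of the condition. Stiff was below Soft by a log2 fold change of -0.27 ± 0.051 (edgeR adjusted p = 2.82e-06). Stiff+mito was above Soft+mito by 0.96 ± 0.041 (1.95-fold, edgeR adjusted p = 1.45e-41), and Stiff-TW above Soft-TW by 0.43 ± 0.027 (1.34-fold, edgeR adjusted p = 1.26e-27). In each of these 3 comparisons the libraries lay apart. The interaction of mito and matrix, the mito response on stiff minus that on soft, was 1.23 ± 0.065 for Car9, with the smallest p of the 12245 genes (edgeR adjusted p = 2.96e-31). The interaction of TW and matrix was 0.70 ± 0.058 (edgeR adjusted p = 9.72e-20).

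Car12, the other membrane-bound enzyme, was lower than Car9 throughout. Its libraries stood at 47.23, 47.79 and 46.56 TPM in Stiff-TW, at 14.28, 13.17 and 15.02 in Stiff+mito, and at 8.30, 8.71 and 9.17 in Stiff. The soft libraries stood at 49.81, 46.79 and 49.10 TPM in Soft-TW, at 7.42, 6.47 and 6.69 in Soft+mito, and at 7.75, 7.02 and 7.85 in Soft. The TW libraries of the matrices overlapped each other and lay above every other library, and the Soft+mito and Soft libraries overlapped.

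Car12 rose in Stiff-TW over Stiff with a log2 fold change of 2.47 ± 0.048 (5.56-fold, edgeR adjusted p = 3.85e-73). In Soft-TW over Soft it rose with 2.80 ± 0.049 (6.96-fold, edgeR adjusted p = 5.57e-77). It rose in Stiff+mito over Stiff with 0.70 ± 0.062 (1.62-fold, edgeR adjusted p = 6.44e-18), while Soft+mito against Soft gave -0.041 ± 0.075 (edgeR adjusted p = 0.737). Stiff stood above Soft by 0.30 ± 0.072 (edgeR adjusted p = 0.000182), the sign opposite to that of Car9, and Stiff+mito above Soft+mito by 1.04 ± 0.064 (2.06-fold, edgeR adjusted p = 9.72e-29). Stiff-TW against Soft-TW gave -0.023 ± 0.034 (edgeR adjusted p = 0.599).

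The interactions of Car12 with the matrix had opposite signs, 0.74 ± 0.097 for mito (edgeR adjusted p = 1.09e-09) and -0.32 ± 0.079 for TW (edgeR adjusted p = 0.000499). The TPM ratio of Car9 to Car12 was 4.44 ± 0.0282 in Stiff-TW, 5.31 ± 0.577 in Stiff+mito and 3.36 ± 0.0325 in Stiff. It was 3.25 ± 0.0911 in Soft-TW, 5.56 ± 0.255 in Soft+mito and 4.96 ± 0.365 in Soft. The TW ratio was thus above that of the matrix alone on stiff and below it on soft. Over the 18 libraries, log2 CPM (counts scaled to library size) of Car9 and Car12 correlated with r = 0.968 and rho = 0.742, a description of points that share 6 groups.

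Nearly all Car12 and Car9 signal sat on one transcript each. The transcript NM_001306148 held from 99.4% of the Car12 TPM in Stiff-TW to 100% in Soft+mito and Soft, and NM_139305 held 98.5% to 99.4% of the Car9 TPM in the 6 groups. The predicted Car9 transcript XM_006537831 accounted for 1.38% in Stiff-TW, 0.784% in Stiff+mito and 1.16% in Stiff, and for 0.766% in Soft-TW, 0.578% in Soft+mito and 1.47% in Soft. The changes of Car9 and Car12 were therefore carried by the same transcript in every group, as far as the estimated counts divide the reads.

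Since Car9 and Car12 are listed among genes induced by low oxygen, 25 other textbook hypoxia-induced genes were set beside them, all of which were tested. In Stiff-TW against Stiff, 23 rose and 0 fell, with a median log2 fold change of 1.42, where 35.5% of all genes rose and 34.1% fell and their median was 0.0091. In Soft-TW against Soft, 22 rose and 1 fell, with a median of 1.23, where 28.9% of all genes rose and 28.0% fell and their median was -0.0037. With DESeq2, 22 rose and 0 fell in Stiff-TW against Stiff, where it called 7833 of the 12245 genes, 3897 of them higher. At an unadjusted edgeR p under 0.05, 23 rose and 0 fell, with no share of all genes held for that threshold. In Soft-TW against Soft, the protein-folding oxidase gene Ero1a rose by 2.93 ± 0.019, Ndrg1 by 1.89 ± 0.019, the glucose transporter gene Slc2a1 by 1.65 ± 0.023 and the lysyl hydroxylase gene Plod2 by 1.65 ± 0.025. Car9 and Car12 lay above the median of the 25 in both TW comparisons.

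With mito the hypoxia-induced genes shifted less. In Stiff+mito against Stiff, 17 rose and 1 fell, with a median of 0.23, where 15.6% of all genes rose and 17.8% fell and their median was 0.00058. A single one of the 25, Ankrd37, an ankyrin repeat gene named here after its value was seen, had a larger log2 fold change there (1.57 ± 0.17) than Car9. In Soft+mito against Soft, 18 rose and 2 fell, with a median of 0.205 (all genes 14.8%, 11.9% and 0.0073), led by Ldha (0.27 ± 0.018), Ndrg1 (0.22 ± 0.020), Slc2a1 (0.28 ± 0.025) and Pgk1 (0.20 ± 0.019). In the same comparison Car12 did not pass the test and the call of Car9 was lost under several settings. Whether Car9 and Car12 differ from the list there was not tested.

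Between matrices more genes of the list fell than rose. In Stiff against Soft, 5 of the 25 rose and 16 fell, with a median of -0.255 (all genes 29.1%, 24.7% and 0.015), among them Ldha (-0.44 ± 0.018), Egln1 (-0.53 ± 0.033) and Pgk1 (-0.31 ± 0.019), while Ero1a rose by 0.59 ± 0.019. Car9 fell there too (-0.27) and Car12 rose (0.30). In Stiff+mito against Soft+mito, 5 rose and 15 fell with a median of -0.144 (all genes 32.7%, 30.8% and 0.0135), the comparison in which Car9 and Car12 rose by 0.96 and 1.04. In Stiff-TW against Soft-TW, 4 rose and 15 fell with a median of -0.145 (all genes 27.6%, 26.7% and 0.0021), where Car9 rose by 0.43 and Car12 gave -0.023. Scaled by library totals alone, the higher genes among those called made up 38.6% in place of 50.8% in Soft-TW against Soft, 38.3% in place of 55.5% in Soft+mito against Soft, and 44.1% in place of 54.1% in Stiff against Soft.

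**Figure D3:**
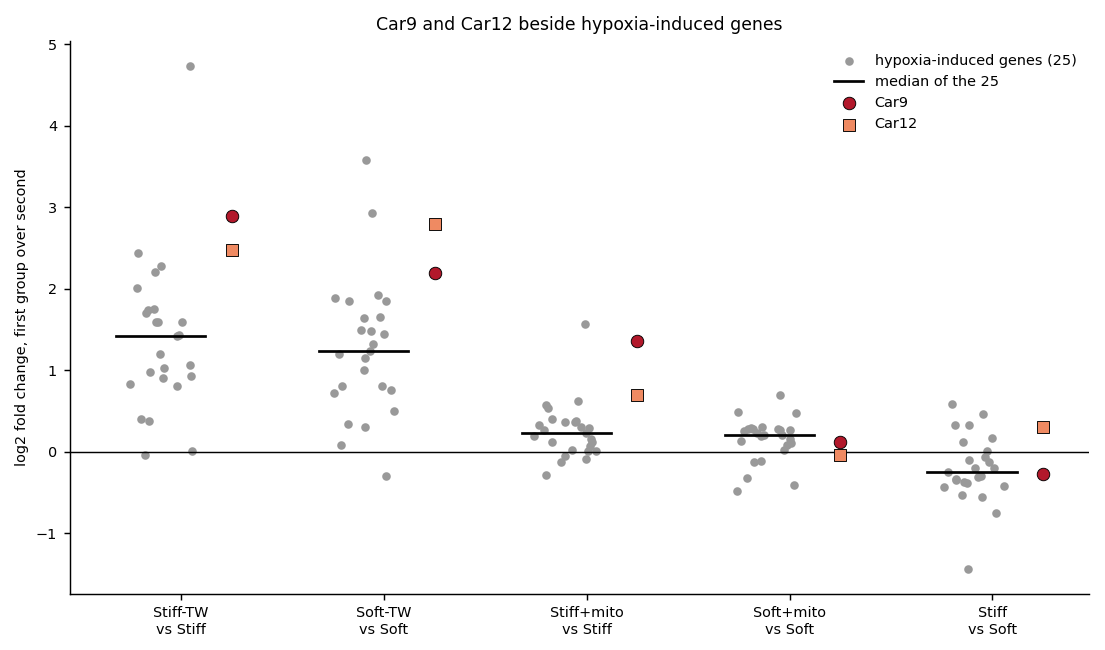
Log2 fold changes (vertical axis, first group over second) of 25 hypoxia-induced genes (grey points, line at their median) beside Car9 and Car12 in 5 comparisons. In Stiff+mito against Stiff, Car9 at 1.36 lies above all but one of the 25 genes, whose median is 0.23.

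Of the regulators, Hif1a, the oxygen-sensitive subunit of HIF1, had 120.5 ± 1.79 TPM in Stiff-TW, 95.7 ± 4.00 in Stiff+mito and 95.2 ± 1.75 in Stiff, and 113.9 ± 1.12 in Soft-TW, 85.4 ± 2.90 in Soft+mito and 86.8 ± 2.49 in Soft. It rose with TW by 0.38 ± 0.024 on stiff (edgeR adjusted p = 4.26e-28) and by 0.51 ± 0.024 on soft (edgeR adjusted p = 5.31e-37), and Stiff+mito against Stiff gave 0.0042 ± 0.025 (edgeR adjusted p = 0.923). With mito on soft the test gave 0.069 ± 0.025 (edgeR adjusted p = 0.0303). Mean TPM of Hif1a was lower there, at 85.4 in Soft+mito against 86.8 in Soft, with overlapping libraries, so no direction is read. Arnt, the partner of Hif1a, rose with TW by 0.38 ± 0.031 on stiff (edgeR adjusted p = 2.51e-21) and by 0.36 ± 0.032 on soft (edgeR adjusted p = 2.00e-18). Arnt also rose by 0.089 ± 0.031 in Stiff+mito over Stiff (edgeR adjusted p = 0.0202), and Soft+mito against Soft gave 0.041 ± 0.033 (edgeR adjusted p = 0.380). Vhl, whose product marks HIF proteins for degradation, fell with mito by -0.31 ± 0.060 on stiff and by -0.17 ± 0.057 on soft, and rose with TW by 0.22 ± 0.055 on stiff and by 0.42 ± 0.053 on soft, all called by edgeR. In Stiff against Soft, Hif1a rose by 0.23 ± 0.025 (edgeR adjusted p = 6.51e-14) and Arnt by 0.22 ± 0.032 (edgeR adjusted p = 3.39e-09). Vhl gave -0.0028 ± 0.057 there (edgeR adjusted p = 0.972). Epas1, which encodes HIF2 alpha, had at most 3 counts summed over a group. Hif1a is controlled mainly at the level of its protein, which was not measured here.

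Car2, the cytosolic enzyme of high activity, was nearly unread without mito or TW. It had 26, 19 and 24 counts in Stiff-TW, 9, 10 and 9 in Stiff+mito, and 1, 0 and 0 in Stiff. It had 54, 47 and 55 counts in Soft-TW, 12, 10 and 16 in Soft+mito, and 2, 0 and 0 in Soft. In 4 libraries it was at 0, where 3 counts, the limit that a count of 0 allows for counting error only, are about 0.2 TPM. The TW and mito libraries lay apart from those of the same matrix alone.

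In TPM, Car2 came to 1.51 ± 0.272 in Stiff-TW, 0.633 ± 0.0416 in Stiff+mito, 3.47 ± 0.327 in Soft-TW and 0.82 ± 0.187 in Soft+mito. Because Soft had 2 counts and Stiff 1, the folds are given as ratios of summed counts scaled to library size, with exact (Clopper-Pearson) 95% intervals for counting error. The ratio was 70.4 (12.2 to 2820) for Stiff-TW over Stiff and 80.6 (21.9 to 671) for Soft-TW over Soft. It was 27.6 (4.57 to 1130) for Stiff+mito over Stiff and 18.9 (4.88 to 162) for Soft+mito over Soft. No p-value is given for these 4 ratios, since Car2 passed the filter on low counts only through libraries in which it was high. In fits of only Soft+mito and Soft, or of only Stiff+mito and Stiff, it had too few reads to be tested.

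Between the matrices, Car2 was lower in Stiff-TW than in Soft-TW, with a log2 fold change of -1.13 ± 0.23 (0.456-fold, edgeR adjusted p = 9.61e-06) and no overlap between libraries. Stiff+mito against Soft+mito gave -0.39 ± 0.37 (edgeR adjusted p = 0.362) with overlapping libraries, and a count ratio of 0.763 (0.451 to 1.28). Most Car2 signal was on the transcript NM_001357334, at 81.0% in Stiff-TW and 96.4% in Soft-TW. The reads assigned to NM_009801, came to 14.9 estimated counts in Stiff-TW and 6.34 in Soft-TW and were at 0 in the other groups.

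Because Car2 is also an osteoclast gene and RAW264.7 cells can form osteoclasts, markers were set beside it. The summed level of the 17 macrophage markers was 58.8 ± 0.923 TPM in Stiff-TW, 45 ± 1.7 in Stiff+mito and 36.1 ± 2.81 in Stiff, and 87.2 ± 2.19 in Soft-TW, 53.8 ± 1.77 in Soft+mito and 43.0 ± 0.29 in Soft. It was highest in Soft-TW, as Car2 was, and lowest in Stiff. A few genes carried this sum too. Lyz2 averaged 5.59 TPM in Soft and 30.2 in Soft-TW, and Cd68 5.9 and 14.4. Cd14, the most abundant of the list, averaged 27.6 and 30.2 TPM there and was highest in Soft+mito, at 32.4. Aif1 averaged 1.89 and 2.27 TPM in Soft and Soft-TW. Several markers averaging under 1 TPM were near 0 in Soft and higher in Soft-TW. Tyrobp had means of 0 and 3.00 TPM there, Laptm5 0.0167 and 1.44, Mpeg1 0.137 and 1.05, and Csf1r 0.0533 and 0.83. Fcgr1 (0.2 and 0.0667 TPM) and C1qb (0.947 and 0.873) were lower in Soft-TW. Of these markers 4 averaged at least 1 TPM and none was at 0 in all 18 libraries, although Adgre1 had only 17 counts in all, with 0 in Soft+mito and Soft.

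The summed level of the 11 osteoclast markers was 37.3 ± 1.11 TPM in Stiff-TW, 20.0 ± 0.613 in Stiff+mito and 18.7 ± 0.242 in Stiff, and 27.7 ± 1.30 in Soft-TW, 15.7 ± 1.5 in Soft+mito and 16.9 ± 1.01 in Soft. Of the 11, 4 averaged at least 1 TPM over the 18 libraries, namely Nfatc1 (9.51 TPM), Mmp9 (8.28), Acp5 (2.29) and Ctsk (1.33). Mmp9, a protease gene, averaged 22.7 TPM in Stiff-TW and 4.02 TPM in Stiff. Acp5 and Ctsk were highest in Soft-TW, at 2.69 and 1.89 TPM, and Nfatc1 was lowest there, at 8.67 TPM. Other genes of the list were near 0. Calcr, Oscar and Atp6v0d2 had 3, 8 and 3 counts over the 18 libraries, and Atp6v0d2 was at 0 in Stiff-TW, Stiff+mito, Stiff, Soft+mito and Soft. The 6 erythroid markers in the table summed to between 1.07 ± 1.02 and 3.70 ± 0.984 TPM by group, lowest in Stiff-TW. The part of other cells in the Car2 result was not tested.

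**Figure D4:**
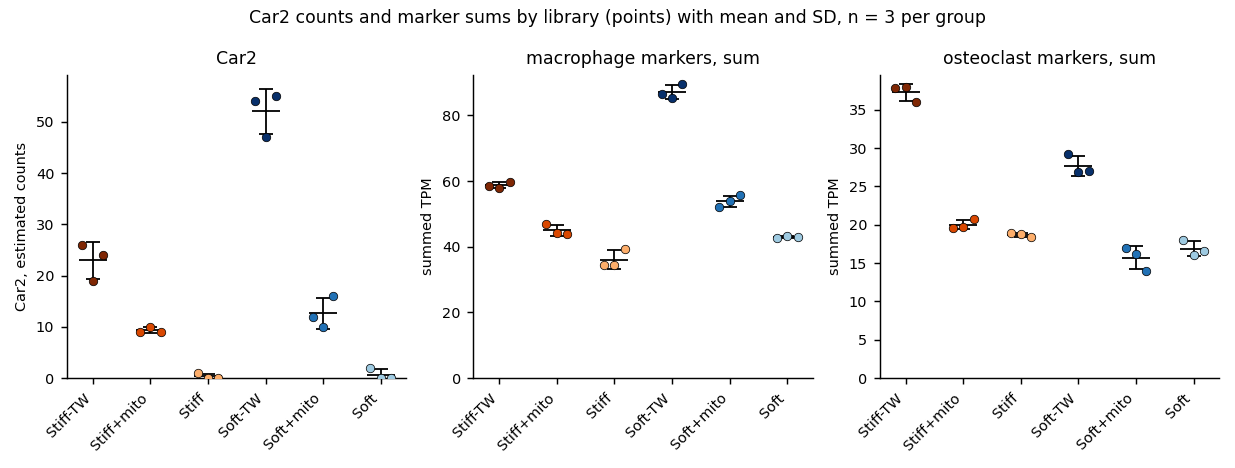
Estimated counts of Car2 (left) and summed TPM of macrophage (middle) and osteoclast markers (right) in each library (points) by group, with mean and SD (n = 3), on linear scales from 0. Car2 and the macrophage sum are both highest in Soft-TW, at 47 to 55 counts and 85.4 to 89.6 TPM, and the osteoclast sum is highest in Stiff-TW, at 36.0 to 38.0 TPM.

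Car6, the secreted enzyme, was highest in Stiff. Its libraries stood at 12.55, 10.87 and 11.50 TPM in Stiff-TW, at 22.92, 24.03 and 22.41 in Stiff+mito, and at 36.62, 36.72 and 34.76 in Stiff. Those of the soft groups stood at 16.39, 13.62 and 15.63 TPM in Soft-TW, at 7.24, 5.89 and 7.41 in Soft+mito, and at 9.02, 6.41 and 7.22 in Soft. The 3 stiff groups did not overlap one another, TW was above the rest on soft, and Soft+mito overlapped Soft.

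On the stiff side Car6 fell with TW and with mito, by -1.56 ± 0.086 in Stiff-TW (0.338-fold, edgeR adjusted p = 5.89e-33) and by -0.63 ± 0.074 in Stiff+mito (0.648-fold, edgeR adjusted p = 9.54e-12), each against Stiff. On the soft side it rose with TW, by 1.12 ± 0.11 (2.17-fold, edgeR adjusted p = 7.12e-16), and Soft+mito against Soft gave -0.045 ± 0.13 (edgeR adjusted p = 0.843). The responses to TW thus had opposite signs on the matrices, and the interaction was -2.68 ± 0.14 (edgeR adjusted p = 2.56e-33). It ranked 22 from the lowest of the 12245 genes in that interaction. The interaction of mito and matrix was -0.58 ± 0.15 (edgeR adjusted p = 0.00208).

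The gap of Car6 between matrices narrowed and turned as the condition changed. The log2 fold change was 2.32 ± 0.094 (5.00-fold, edgeR adjusted p = 5.06e-43) for Stiff over Soft and 1.74 ± 0.10 (3.34-fold, edgeR adjusted p = 4.48e-30) for Stiff+mito over Soft+mito. For Stiff-TW over Soft-TW it was -0.36 ± 0.10 (0.779-fold, edgeR adjusted p = 0.00144). Car6 rested on 68 to 399 counts per library. Of the 6 secretory and salivary markers listed, 4 were in the table. Bpifa2 and Smgc had 1 count each over the 18 libraries, Amy1 averaged 1.31 TPM (345 counts in all), and the water channel gene Aqp5 averaged 50.3 TPM.

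Car5b, the mitochondrial enzyme, was highest in Soft and Soft+mito. Its libraries stood at 27.90, 25.32 and 27.40 TPM in Stiff-TW, at 29.97, 30.38 and 31.34 in Stiff+mito, and at 27.34, 29.08 and 29.69 in Stiff. Soft libraries stood at 25.59, 25.95 and 28.20 TPM in Soft-TW, at 38.46, 38.38 and 37.60 in Soft+mito, and at 38.35, 38.72 and 38.93 in Soft. The Soft+mito and Soft libraries overlapped each other and lay above all others.

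Stiff was below Soft by a log2 fold change of -0.34 ± 0.040 for Car5b (0.789-fold, edgeR adjusted p = 1.94e-12), and Stiff+mito below Soft+mito by -0.33 ± 0.039 (edgeR adjusted p = 3.29e-12). Soft-TW was below Soft by -0.43 ± 0.041 (0.742-fold, edgeR adjusted p = 6.95e-17), while Stiff-TW against Stiff gave -0.053 ± 0.043 (edgeR adjusted p = 0.270), so that Stiff-TW against Soft-TW came to 0.035 ± 0.044 (edgeR adjusted p = 0.524). The interaction of TW and matrix was 0.38 ± 0.060 (edgeR adjusted p = 8.95e-08). With library totals as the scale the value for Stiff-TW against Stiff was -0.10 and passed (edgeR adjusted p = 0.0319). For mito, Car5b gave 0.092 ± 0.042 on stiff (edgeR adjusted p = 0.0801, and 0.0493 without Stiff+mito replicate 1) and 0.076 ± 0.038 on soft (edgeR adjusted p = 0.132). Its mean TPM was lower in Soft+mito (38.15) than in Soft (38.67), with overlapping libraries, so no direction is read on soft.

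Enzymes that use bicarbonate, several of them mitochondrial, were followed beside Car5b, and 8 of 10 were tested. In Stiff against Soft, 4 rose and 1 fell with a median of 0.31, including the pyrimidine synthesis gene Cad (0.44 ± 0.029), the propionyl-CoA carboxylase gene Pcca (0.54 ± 0.094) and the pyruvate carboxylase gene Pcx (0.29 ± 0.078), while Mccc1 fell (-0.16 ± 0.054). In Soft-TW against Soft, 1 rose and 4 fell with a median of -0.331, namely Cad (-0.43 ± 0.032), the acetyl-CoA carboxylase gene Acaca (-0.36 ± 0.029), Pccb (-0.46 ± 0.094) and Pcca (-0.46 ± 0.11). With mito on soft 0 of 8 passed the edgeR test and 0 of 8 that of DESeq2, and 2 were lower at an unadjusted edgeR p under 0.05. For the edgeR test, the shares and medians of all genes in these comparisons are those given beside the hypoxia-induced genes. DESeq2 called 2264 of the 12245 genes with mito on soft, and no share is held for the unadjusted p.

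Car13, the other cytosolic enzyme, stayed between 26.2 and 38.2 TPM. Its libraries stood at 27.78, 27.66 and 26.17 TPM in Stiff-TW, at 28.33, 29.54 and 28.84 in Stiff+mito, and at 29.39, 33.29 and 30.78 in Stiff. For the soft groups the values were 29.44, 32.30 and 31.55 TPM in Soft-TW, at 37.08, 34.03 and 33.66 in Soft+mito, and at 38.22, 35.93 and 34.87 in Soft. Each stiff group was lower than its soft counterpart with no overlap between their libraries.

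For Car13 the log2 fold change was -0.28 ± 0.049 in Stiff+mito against Soft+mito (edgeR adjusted p = 3.97e-07) and -0.17 ± 0.051 in Stiff-TW against Soft-TW (edgeR adjusted p = 0.00280). Stiff against Soft gave -0.14 ± 0.049 (edgeR adjusted p = 0.0111), a call lost without Soft replicate 1 (adjusted p = 0.0733) or Stiff replicate 1 (0.123). Stiff-TW against Stiff gave -0.15 ± 0.052 (edgeR adjusted p = 0.00867), lost without Stiff replicate 2 (log2 fold change -0.09, adjusted p = 0.14). Soft-TW against Soft gave -0.11 ± 0.049 (edgeR adjusted p = 0.0367), lost with DESeq2 (adjusted p = 0.0802) and without Soft replicate 1 (0.162), Soft replicate 2 (0.0716), Soft-TW replicate 1 (log2 fold change -0.0753, adjusted p = 0.243) or Soft-TW replicate 3 (0.0504). With mito Car13 gave -0.10 ± 0.051 on stiff (edgeR adjusted p = 0.110, and 0.0437 without Stiff replicate 1) and 0.037 ± 0.047 on soft (edgeR adjusted p = 0.612). Here too mean TPM was lower in Soft+mito (34.92) than in Soft (36.34), with overlapping libraries, so no direction is read on soft. The log2 fold changes of Car13 with TW and mito thus lay between -0.15 and 0.037. For Car2, in the same cluster, the count ratios were 18.9 to 80.6. Those ratios had wide intervals, since they rest on 2 counts in Soft and 1 in Stiff.

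Car8 was at or near 0. It had 6 counts over the 18 libraries, 13 of which were at 0, and 3 counts would be about 0.06 TPM, so it was not tested. In the rest of the family, with the receptor phosphatase genes Ptprg and Ptprz1 that carry a carbonic anhydrase domain, 9 of 10 genes were in the table and 4 were tested. Ptprg averaged 16.2 TPM, Car11, another related protein without catalytic activity, 3.63 TPM and Car15 1.98 TPM. The others lay at or under 0.636 TPM. Car11 rose in Stiff-TW over Stiff by 1.45 ± 0.16 (6.97 ± 0.97 against 2.32 ± 0.80 TPM) and in Stiff+mito over Stiff by 0.59 ± 0.18, and in Soft-TW over Soft by 0.70 ± 0.17. Soft+mito against Soft gave Car11 a log2 fold change of -0.41 ± 0.20 (edgeR adjusted p = 0.125). Car15 passed in none of the 7 comparisons between groups, with unadjusted edgeR p-values from 0.0800 to 0.907.

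Transporters that move bicarbonate, protons and lactate complete the handling of acid. The genes listed as bicarbonate transporters were of the Slc4 and Slc26 families, and whether each carries bicarbonate was not checked. Of 10 tested genes of that list, 3 rose and 5 fell in Stiff against Soft (median -0.084). Of all genes, 29.1% rose and 24.7% fell there (median 0.015). In Soft-TW against Soft, 4 rose and 2 fell (median 0.143), where 28.9% of all genes rose and 28.0% fell (median -0.0037). Slc4a4 (0.88 ± 0.13), Slc4a7 (0.35 ± 0.042) and Slc4a8 (0.33 ± 0.047), sodium-coupled importers, rose in Soft-TW and the anion exchanger gene Slc4a2 fell (-0.33 ± 0.029). On stiff, Slc26a2 (-0.54 ± 0.083), Slc4a2 (-0.18 ± 0.029) and Slc4a8 (-0.21 ± 0.051) fell against Soft, and Slc26a7, at 0.202 TPM over all libraries, rose (1.30 ± 0.34). With mito on soft 0 of 10 passed the edgeR test, where 14.8% of all genes rose and 11.9% fell. By DESeq2 0 of 10 passed, where it called 2264 of the 12245 genes. At an unadjusted edgeR p under 0.05, 1 was higher and 1 lower, with no share of all genes held for that threshold.

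Of 14 tested genes of proton and lactate transport, 3 rose and 3 fell in Soft-TW against Soft (median -0.040), where 28.9% of all genes rose and 28.0% fell. The lactate exporter gene Slc16a3 (0.79 ± 0.026) and its chaperone Bsg (0.78 ± 0.019) rose, and the sodium-proton exchanger gene Slc9a9 fell (-1.01 ± 0.13). With mito on soft, 4 rose and 4 fell (median -0.033), where 14.8% of all genes rose and 11.9% fell. Among them were Slc16a3 (0.24 ± 0.028), Bsg (0.16 ± 0.019) and Slc9a2 (0.18 ± 0.036) upward and Slc9a5 (-0.38 ± 0.073) downward. In Stiff against Soft, 5 rose and 3 fell (median 0.059), where 29.1% of all genes rose and 24.7% fell, with Slc9a9 (1.40 ± 0.093) and Emb (0.69 ± 0.086) higher and Slc9a2 (-1.19 ± 0.044) and Slc9a3r1 (-0.18 ± 0.043) lower.

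For each of the 6 genes, the 3 genes most alike in log2 CPM over the 18 libraries were found among genes averaging at least 5 CPM (9887 genes, and 9888 for Car2). These values describe 6 groups of 3 libraries rather than 18 independent points. For Car9 they were Col6a3, a collagen chain gene (r = 0.989, rho = 0.963), the mitophagy kinase gene Pink1 (r = 0.986, rho = 0.907) and Rnf114 (r = 0.981, rho = 0.93). For Car12 they were Appl2 (r = 0.993, rho = 0.901), the prosaposin gene Psap (r = 0.993, rho = 0.913) and Fndc3a (r = 0.990, rho = 0.915). Car6 was most like Scpep1, a carboxypeptidase gene (r = 0.982, rho = 0.95), Htatip2 (r = 0.963, rho = 0.92) and the mitochondrial protease gene Lonp1 (r = 0.959, rho = 0.94).

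Car5b was most like Crat, the carnitine acetyltransferase gene (r = 0.967, rho = 0.936), Dbi (r = 0.951, rho = 0.891) and Mprip (r = 0.946, rho = 0.899). For Car2 the nearest were Adamts1 (r = 0.955, rho = 0.921), Zfp703 (r = 0.945, rho = 0.96) and Btg1 (r = 0.935, rho = 0.97). Car13 was nearest to Ints14 (r = 0.942, rho = 0.942), Pik3c2a (r = 0.930, rho = 0.93) and Xpnpep1 (r = 0.922, rho = 0.934). Among the carbonic anhydrases themselves, Car2 went with Car9 (r = 0.836, rho = 0.848), Car5b with Car13 (r = 0.721, rho = 0.649), and Car6 with neither Car9 (r = 0.0051, rho = -0.11) nor Car12 (r = 0.154, rho = 0.447).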

How the data were processed

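The authors deposited estimated counts (expected counts) and TPM per gene for 18397 genes and per RefSeq transcript for 64855. Per the labels' protocols, RNA was selected for poly(A) and made into dUTP strand-specific libraries. Per the labels the build is mm10. No aligner, quantifier or gene annotation is named in the sources used here. Of the gene counts, 10.9% were not whole (tolerance 0.001), and 44 columns of averages in each table were not used.

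Rounded counts went into edgeR 4.0.16 under R 4.3.3 (filterByExpr with a minimum count of 10, TMM, robust glmQLFit, 1 mean per group over 18 libraries, two-sided F-tests, Benjamini-Hochberg over 12245 genes). The common biological coefficient of variation was 0.0175, so small changes pass. The 9 comparisons include 2 interactions. Alternatives were DESeq2 1.42.0, RLE factors, library totals, no filter, fits of only the groups compared, a replicate block, and each library left out. Log2 CPM used a prior count of 2.

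The members and lists were chosen with earlier results of these data known. Named list genes are up to 4 per list with the smallest adjusted p in Stiff against Soft, Soft-TW against Soft or Soft+mito against Soft. Markers of epithelial, fibroblast, endothelial, erythroid and secretory cells were listed too. Their sums ran by group from 676 to 1040, 62.3 to 147, 0.323 to 0.653, 1.07 to 3.70 and 39.9 to 61.1 TPM. One gene that this rule names is not reported here. Protein sequences were not used here.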

Additional observations from a re-analysis of the deposited data

Results flagged for a closer look

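In 7 cases the response to mito or TW differed between the matrices by the test of the interaction itself (edgeR adjusted p under 0.05 over all 12245 genes). For mito, the log2 response on stiff minus that on soft was 1.23 for Car9, 0.74 for Car12 and -0.58 for Car6. Car9 and Car12 were raised on stiff (1.36 and 0.70) and gave 0.12 and -0.041 on soft, and Car6 was lowered on stiff (-0.63) and gave -0.045 on soft. For TW, the same difference was 0.70 for Car9, -0.32 for Car12, -2.68 for Car6 and 0.38 for Car5b. Car9 and Car12 rose on both matrices, Car6 fell on stiff and rose on soft, and Car5b gave -0.053 on stiff and fell on soft (-0.43). Of all genes, 23.6% were called in the interaction of mito and matrix and 36.1% in that of TW and matrix, against 3 and 4 of the 6 tested genes. The 2 interactions share the Stiff and Soft libraries.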

How the results depend on the processing

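Of the log2 fold changes of the 6 tested genes under the alternatives, 684 kept direction and side of the threshold, 15 lost a call and 3 gained one, as given beside the results, and 15 changed sign. In Soft+mito against Soft, 2 genes were called, but 1 with library totals, with DESeq2 or without a filter, and 0 in a fit of only those groups, in which Car2 was not tested. Leaving out a library gave 1 to 2 there, 5 to 6 in Soft-TW against Soft, 4 to 5 in Stiff against Soft, Stiff+mito against Stiff and Stiff-TW against Stiff, and no change elsewhere. With the replicate block the same number of genes was called in each of the 9 comparisons (5 in Stiff against Soft). Same-numbered libraries correlated from -0.108 to 0.101 in their deviations, so no pairing by number was seen. Counting error in these deviations could hide one. DESeq2 called 1893 genes in place of 2888 in the interaction of mito and matrix.

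Signs changed in 8 values that had not passed, each only when 1 library was left out. The log2 values then ran from -2.63 to 1.89 for Car2 in Stiff against Soft (positive without Soft replicate 1). In Soft+mito against Soft they ran from -0.142 to 0.088 for Car6 and from -0.089 to 0.0040 for Car12, and in Stiff-TW against Soft-TW from -0.00071 to 0.077 for Car5b. For the interaction of mito and matrix they ran from -2.28 to 2.25 for Car2 and from -0.018 to 0.040 for Car5b, and for that of TW and matrix from -3.02 to 1.5 for Car2 and from -0.074 to 0.021 for Car13. The cause was not tested. Depth limits Car2 in Stiff and Soft and Car8 in all groups.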
